A study of Mus musculus with 4 samples.

Results

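The genes described here encode 10 enzymes and enzyme-like proteins of the endoplasmic reticulum (ER): P4hb, Pdia3, Pdia4, Pdia5, Pdia6, Txndc5, Erp44, Erp29, Tmx1 and Prdx4. Most of them make, rearrange or pass on disulfide bonds, whereas Erp29 lacks a reactive cysteine pair. The 10 genes were chosen by name, with earlier results of these data known. Every array probe whose RefSeq accession belongs to one of them was used. That gave 13 probes for the 10 genes, among 37516 probes and 16524 named genes that passed the filter on dim signal. All 13 probes were well above background on all 4 arrays, so no gene of the list was lost to the filter.

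RNA came from the cerebellum of C57BL/6 mice at postnatal day 28. The 2 control arrays carried RNA of Derlin-2flox/flox mice, in which the Derl2 gene is flanked by recombination sites. The 2 knockout (KO) arrays carried RNA of mice bred from crosses of Derl2flox/flox animals with mice carrying Cre recombinase under the nestin promoter. That promoter drives expression in precursors of neurons and glia, so cells of other origin may keep the gene. Whether the controls carried Cre, and whether an array held RNA of a single animal, are not given in the sources used here. If RNA was not taken from separate animals, the p-values measure only the spread between these samples. Each sample of 150 ng RNA was labelled with Cy3 and read on a one-colour Agilent array. Derl2 encodes Derlin-2, an ER membrane protein that helps to move misfolded proteins out of the ER for degradation.

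Proteins that enter the ER are oxidised there: pairs of cysteines are joined into disulfide bonds by protein disulfide isomerases, which have thioredoxin-like folds and, in most members, a pair of reactive cysteines. The isomerases are themselves reoxidised, by the oxidase Ero1 and by peroxiredoxin 4, which draws on hydrogen peroxide. Several genes of this group are known targets of the unfolded protein response, in which the transcription factors ATF6 and XBP1 bind the ER stress response element (ERSE) in promoters.

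The promoter sequences are shown first because the members differed in whether they hold that element. RefSeq's promoter table (build GRCm38.p6) had windows for 9 of the 10 genes, and for Erp29 no window was matched. Each window runs from 250 bases before to 50 bases after a transcription start, and 12 windows belonged to the members, since Erp44 has 2 starts and Txndc5 has 3. Both strands were searched for the ERSE (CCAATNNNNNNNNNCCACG), for the core of the unfolded protein response element bound by XBP1 (TGACGTG), and for an element bound by ATF4 (TGATGNAA). An ERSE form with 1 mismatch allowed in its last 5 bases was added after the sequences had been seen. The stretches printed are the 250 bases before the start, 5′ to 3′ in the direction of the gene, with the ERSE match, exact or with 1 mismatch, in capitals.
Pdia6, chr12:17266339-17266588, plus strand: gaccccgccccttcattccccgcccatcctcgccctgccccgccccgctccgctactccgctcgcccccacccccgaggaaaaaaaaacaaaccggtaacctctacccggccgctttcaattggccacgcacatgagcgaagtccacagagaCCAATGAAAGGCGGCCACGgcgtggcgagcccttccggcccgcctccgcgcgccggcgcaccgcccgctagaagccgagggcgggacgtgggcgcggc
Pdia4, chr6:47813513-47813762, minus strand: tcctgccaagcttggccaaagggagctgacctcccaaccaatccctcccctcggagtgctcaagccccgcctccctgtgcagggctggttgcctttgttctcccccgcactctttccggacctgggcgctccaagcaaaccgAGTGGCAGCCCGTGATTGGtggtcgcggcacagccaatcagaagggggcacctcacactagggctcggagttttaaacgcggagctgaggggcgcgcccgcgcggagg
Pdia3, chr2:121413652-121413901, plus strand: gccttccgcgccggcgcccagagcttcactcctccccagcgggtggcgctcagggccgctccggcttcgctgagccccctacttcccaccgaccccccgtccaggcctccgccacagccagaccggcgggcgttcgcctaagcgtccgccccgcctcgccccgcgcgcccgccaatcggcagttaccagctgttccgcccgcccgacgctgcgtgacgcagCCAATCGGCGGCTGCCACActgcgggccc
Erp44, chr4:48279636-48279885, minus strand: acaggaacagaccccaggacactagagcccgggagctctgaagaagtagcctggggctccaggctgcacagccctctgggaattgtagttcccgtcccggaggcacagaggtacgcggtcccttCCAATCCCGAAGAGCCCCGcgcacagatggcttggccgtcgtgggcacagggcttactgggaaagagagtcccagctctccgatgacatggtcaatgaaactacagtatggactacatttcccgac
Pdia5, chr16:35490874-35491123, minus strand: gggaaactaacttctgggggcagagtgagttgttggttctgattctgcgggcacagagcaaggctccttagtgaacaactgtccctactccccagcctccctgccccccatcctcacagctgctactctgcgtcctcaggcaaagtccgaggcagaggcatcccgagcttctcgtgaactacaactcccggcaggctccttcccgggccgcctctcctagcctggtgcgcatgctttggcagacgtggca
P4hb, chr11:120573254-120573503, minus strand: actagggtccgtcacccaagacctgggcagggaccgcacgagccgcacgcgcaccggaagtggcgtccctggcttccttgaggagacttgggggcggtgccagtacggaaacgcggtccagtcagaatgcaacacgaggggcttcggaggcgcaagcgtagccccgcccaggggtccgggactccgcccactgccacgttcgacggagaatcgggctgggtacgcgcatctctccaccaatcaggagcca

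The exact ERSE was found in 1 member, Pdia6, where it spans bases -98 to -80 relative to the start and reads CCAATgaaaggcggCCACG. It occurred in 39 of all 32851 windows (0.119%). The form with 1 mismatch allowed was found in 5 of the 12 member windows, which belong to 4 of the 9 member genes, Pdia6 included. Of all windows, 328 held it (0.998%). Since this form was added after the member sequences had been seen, setting these shares side by side tests nothing. With positions counted from 1 at the 5′ end of the element, the Pdia3 match (-29 to -11) carries G19A, and the Erp44 match (-126 to -108 from its first start) carries A17C. The Pdia4 match lies on the opposite strand, from -108 to -90, and carries G19T. Of the members, only Txndc5 held either of the other elements: the TGACGTG core before 1 of its starts (-138 to -132) and the ATF4 element before another (-105 to -98). These occurred in 2.01% and 3.97% of all windows. The windows of Pdia5, P4hb, Tmx1 and Prdx4 held none of these elements. The first part of the ERSE, CCAAT, was present in P4hb (-14 to -10) and Prdx4 (-128 to -124) without the second part at the spacing of the element, and was found in 37.4% of all windows. A match describes letters in these windows, and binding was not measured.

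**Figure D1:**
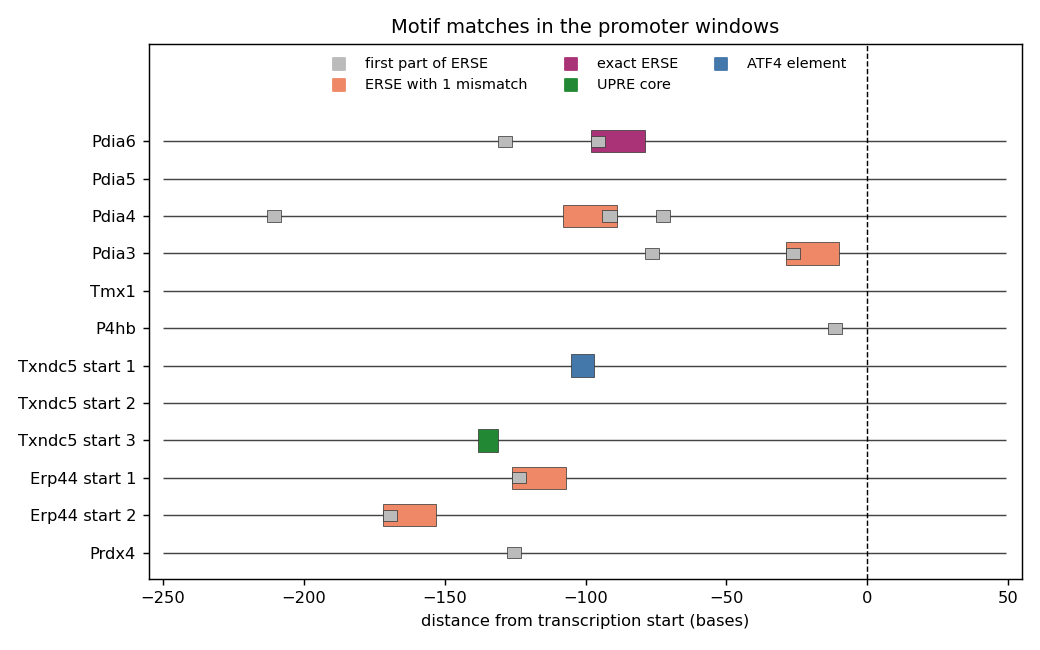
Position of motif matches in the 12 promoter windows, in bases from the transcription start (dashed line), with a row for each window. The exact ERSE is in Pdia6 alone; matches with 1 mismatch are in Pdia4, Pdia3 and both windows of Erp44, and the Pdia5 and Tmx1 rows are empty.

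Levels are given as log2 signal of the probe minus the array's 75th percentile, so 0 is the level below which 75 percent of probes lay. Differences are KO minus control. The labels were read first against Derl2, whose brighter probe stood at 2.13 and 2.20 on the control arrays against 0.81 and 0.70 on the KO arrays. The groups did not overlap, and the KO level was 37.6% of control (difference −1.41, SE 0.11; limma adjusted p 0.273). The dimmer Derl2 probe was at 30.2% of control. The cerebellar markers were present: 6 of 6 granule cell and 5 of 5 Purkinje cell genes were well above background on every array. All 4 arrays lay on 1 slide, with control RNA at positions 1 and 2 and KO RNA at 3 and 4, so position and group cannot be told apart. Control replicate 2 alone held much choroid plexus signal: there the summed linear signal of the 7 genes, relative to the 75th percentile, was 140. On control replicate 1 it was 6.71 and on both KO arrays it was 7.13. The summed red blood cell genes were also highest on control replicate 2, at 354 against 240 on control replicate 1 and 238 and 236 on the KO arrays. The 6 summed oligodendrocyte genes ran from 335 to 353 in the controls and from 294 to 324 in the knockouts, and all 6 were lower in KO by their mean. The 6 microglia genes were also all lower, summing to 16.7 and 16.05 on the control arrays against 12.96 and 14.998 on the KO arrays. The 5 meningeal fibroblast genes summed from 29.1 to 29.3 in the controls and from 24.0 to 27.8 in the knockouts. The summed granule cell genes were also lower, at 472 and 485 in the controls against 462 and 463 in the knockouts. Purkinje cell genes summed to 562 and 569 against 536 and 555. Astrocyte and Bergmann glia genes summed to 79.7 and 78.8 against 74.3 and 72.7. Endothelial genes overlapped, at 17.9 and 18.6 against 18.9 and 16.0. Of the 16524 named genes, 10557 were lower in KO. The part of these differences in the results below was not tested.

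The estimates of the 10 genes ran in both directions in the knockouts. Pdia6 and Pdia5 stood at 166% and 162% of control, Pdia3 and Pdia4 were higher by less, and Prdx4 was at 77.7% of control. P4hb and Tmx1 had mean differences near 0. Those of Txndc5, Erp44 and Erp29 were slightly negative, at −0.085, −0.14 and −0.088, beside a median of −0.064 over all named genes. The intervals of P4hb, Tmx1, Txndc5, Erp44 and Erp29 all included 0 and overlapped, so these genes are not told apart. Both KO arrays lay above both controls for 4 genes, against 22.5% of all probes, and both lay below for 3 genes, against 26.9% of all probes. Together 7 of the 10 had no overlap, against 49.3% of all probes. The members were chosen with earlier results of these data known, so setting these shares side by side is a description. Among the 16524 named genes, by their brightest probe, 2280 had both KO arrays above and 5310 had both below. At a limma p under 0.05 without adjustment, 2 genes were higher in KO (8.84% of all probes) and 1 was lower (5.2% of all probes), and among named genes 522 were higher and 934 lower. After Benjamini-Hochberg adjustment over all 37516 probes, 0 members passed 0.05, as did 0 probes in all (0%), with 5265 probes at an unadjusted p under 0.05. That number of adjusted calls was 98 without control replicate 2 and 1 without control replicate 1, and held no member. The median difference over the 10 genes was 0.019, against −0.064 over all named genes and −0.028 over all probes. In bulk tissue, fewer cells of a type and less RNA per cell cannot be told apart.

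**Figure D2:**
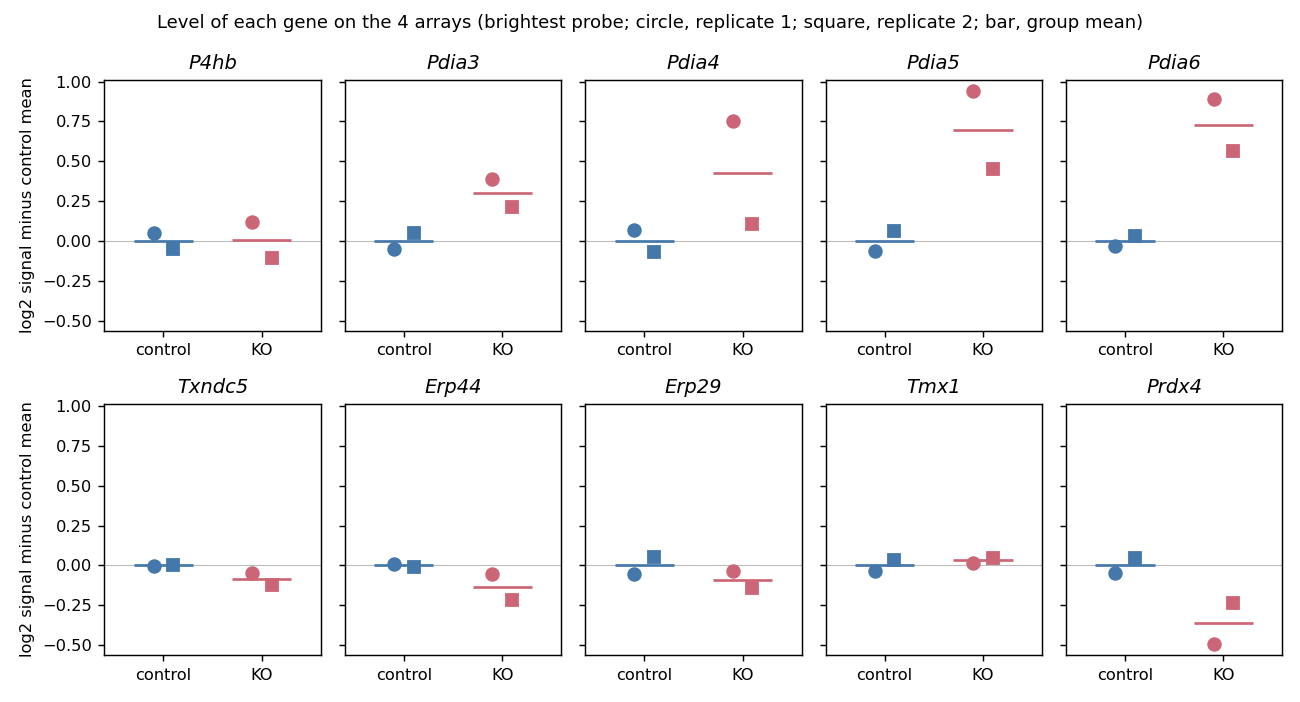
Level of each of the 10 genes on the 4 arrays, as log2 signal minus the mean of the 2 controls, for the brightest probe of each gene; circles are replicate 1, squares replicate 2 and bars group means. The KO points lie above both controls for Pdia3, Pdia4, Pdia5 and Pdia6, and below both for Txndc5, Erp44 and Prdx4.

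Pdia6, also called P5, is an isomerase that binds the chaperone BiP and acts on cysteines of the stress sensor IRE1. Its level was 4.13 and 4.19 on the control arrays against 5.05 and 4.73 on the KO arrays. Both KO arrays stood clear of both controls, by 0.54 at the nearest. The group means were 4.16 ± 0.043 (SD, n = 2) and 4.89 ± 0.23 (SD, n = 2). The difference of 0.73 (SE 0.15, 95% interval 0.33 to 1.13) put the KO at 166% of control, with a limma p of 0.00629 and an adjusted p of 0.273. Of all probes, 1.99% had a larger positive difference. This gene is the one with the exact ERSE, printed above.

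Pdia5, an isomerase known as PDIR with several active sites, was a dim probe. Its level was −3.02 and −2.90 on the control arrays against −2.02 and −2.51 on the KO arrays, with no overlap and a gap of 0.39. The difference was 0.69 (SE 0.20, 95% interval 0.17 to 1.22), and the KO stood at 162% of control. The limma p was 0.0211 and the adjusted p 0.301. Its difference was thus close in size to that of Pdia6, but under normexp the differences were 0.53 for Pdia5 and 0.77 for Pdia6. The promoter window of Pdia5 held no ERSE in either form, and whether the element bears on its level was not tested. The difference of Pdia5 was 0.45 without KO replicate 1 and 0.94 without KO replicate 2. Its unadjusted limma p was under 0.05 in 15 of the 16 alternatives, the exception being without control replicate 1.

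Pdia4, or ERp72, another isomerase with several active sites, was uneven between the knockouts. Its level was −0.92 and −1.05 on the control arrays against −0.24 and −0.88 on the KO arrays. KO replicate 1 was far above both controls, while KO replicate 2 exceeded the higher control by 0.040 alone. The mean difference was 0.43 (SE 0.24, 95% interval −0.22 to 1.08; limma adjusted p 0.480). Without KO replicate 1 it was 0.11, and without KO replicate 2 it was 0.75, so the size of this difference rests on 1 array.

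Pdia3, or ERp57, works with the lectins calnexin and calreticulin on glycoproteins. It had 2 probes. On the brighter one the controls were at 2.30 and 2.40 and the knockouts at 2.74 and 2.56, with both knockouts above both controls. The difference was 0.30 (SE 0.12, 95% interval −0.021 to 0.62; limma adjusted p 0.376). On the dimmer probe the controls were at −1.05 and −0.95 and the knockouts at −0.81 and −1.03, so the groups overlapped, and the difference was 0.084 (SE 0.13; limma adjusted p 0.779). The probes thus gave different sizes, and their mean gave 0.19.

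P4hb, the founding isomerase of the family, is also the beta subunit of collagen prolyl 4-hydroxylase and of the microsomal triglyceride transfer complex. Its level was 1.75 and 1.65 on the control arrays against 1.82 and 1.59 on the KO arrays. KO replicate 1 was the highest array and KO replicate 2 the lowest, and the groups overlapped. The difference was 0.0052 (SE 0.13, 95% interval −0.34 to 0.35; limma adjusted p 0.99). It was −0.11 without KO replicate 1 and −0.044 without control replicate 2, so its sign is not settled.

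Tmx1 is an isomerase anchored in the ER membrane. Its brighter probe was at 0.62 and 0.68 on the control arrays against 0.67 and 0.70 on the KO arrays, with overlap. The difference was 0.033 (SE 0.10, 95% interval −0.24 to 0.30; limma adjusted p 0.896). It turned to −0.00059 when control replicate 1 was left out. The dimmer probe ran from −3.53 to −3.29 in the controls and from −3.54 to −3.03 in the knockouts, a difference of 0.12 (SE 0.21).

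Txndc5, or ERp46, is an isomerase with several thioredoxin domains. Its level was 1.86 and 1.87 on the control arrays against 1.81 and 1.74 on the KO arrays. Both knockouts were lower, but by 0.046 at the nearest. The difference was −0.085 (SE 0.10, 95% interval −0.35 to 0.18; limma adjusted p 0.713), and it became 0.0031 with arrays scaled to spike-in probes and 0.0021 under normexp. It stayed negative under quantile normalization (−0.043) and with arrays scaled to the median of probes well above background (−0.090).

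Erp44 retains Ero1 and unassembled client proteins by cycling between the Golgi and the ER. Its level was 0.19 and 0.17 on the control arrays against 0.12 and −0.039 on the KO arrays, a difference of −0.14 (SE 0.11, 95% interval −0.44 to 0.16; limma adjusted p 0.601). Both knockouts were below both controls by 0.043 at the nearest. It was thus not among the genes with a higher KO level, and its promoter holds the ERSE with 1 mismatch. Whether the element bears on the level of any member was not tested. Erp29 has the fold of an isomerase without the reactive cysteine pair and assists folding of secretory proteins. Its brighter probe was at 5.78 and 5.89 on the control arrays against 5.80 and 5.70 on the KO arrays, which overlapped. The difference was −0.088 (SE 0.11, 95% interval −0.38 to 0.20; limma adjusted p 0.729), and it became 0.0094 under normexp. Its dimmer probe differed by −0.15 (SE 0.11), with both knockouts below both controls.

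Prdx4, the ER peroxiredoxin, was the member with the lowest KO level relative to control. It stood at 1.66 and 1.74 on the control arrays against 1.21 and 1.46 on the KO arrays. Both knockouts were lower than both controls, by 0.19 at the nearest, and KO replicate 1 was again the array farther from the controls. The group means were 1.70 ± 0.063 (SD, n = 2) and 1.34 ± 0.18 (SD, n = 2). The difference was −0.36 (SE 0.13, 95% interval −0.72 to −0.0077), with a limma p of 0.0469 and an adjusted p of 0.351. Of all probes, 7.83% had a more negative difference. The unadjusted p of Prdx4 stayed under 0.05 in 10 of the 16 alternatives. It was 0.0691 under quantile normalization, 0.0965 under spike-in scaling and 0.0768 with no filter on dim probes. With an array left out it was 0.102 without control replicate 1, 0.174 without control replicate 2 and 0.15 without KO replicate 1, where the difference was −0.24.

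**Figure D3:**
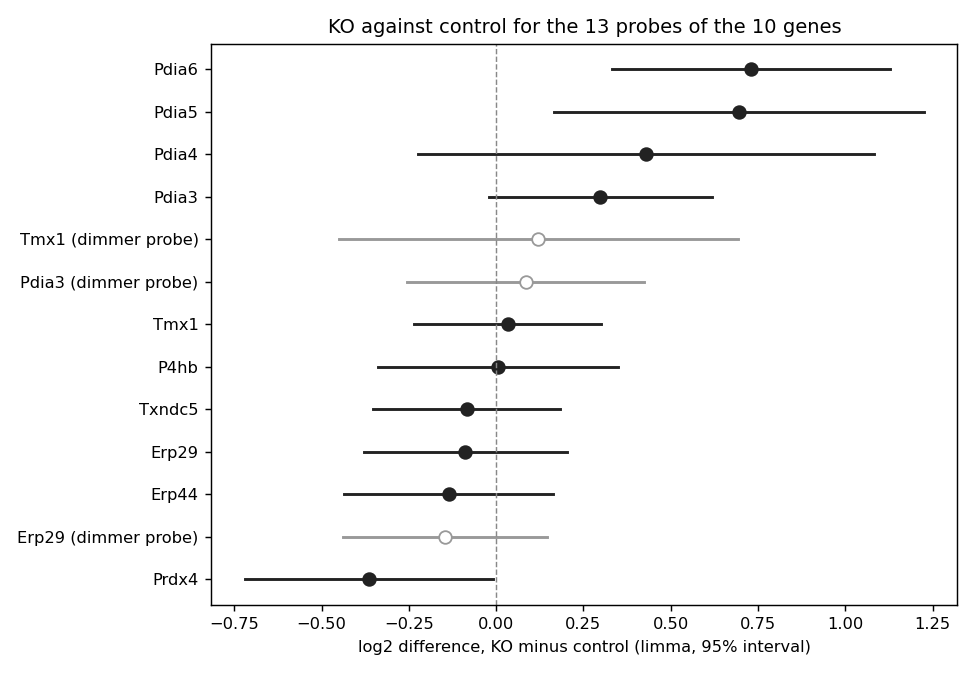
Log2 difference between KO and control with its 95% limma interval for the 13 probes; filled points are the brightest probe of a gene and open points the dimmer probe of the same gene. The intervals of Pdia6, Pdia5 and Prdx4 leave out 0, and the other 10 include it.

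For P4hb, Tmx1, Txndc5, Erp44 and Erp29 the upper ends were 0.35, 0.30, 0.18, 0.16 and 0.20, below the estimate of 0.73 for Pdia6. The interval of Pdia6 itself, 0.33 to 1.13, overlaps that of P4hb. For the same genes as above, P4hb to Erp29, the lower ends allow a lower KO level, from −0.44 for Erp44 to −0.24 for Tmx1. An unadjusted p over 0.05 does not show that these levels were equal.

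Members were then compared with each other inside each array, where a shift of the whole array cancels. The values of 4 of the 45 pairs are given. With 2 arrays in each group the smallest two-sided p of an exact permutation test is 0.333, so these ratios are descriptions. P4hb minus Pdia6 on the log2 scale was −2.38 and −2.54 on the control arrays against −3.24 and −3.14 on the KO arrays, a change of −0.73 (exact permutation p 0.333). By this ratio the KO arrays lay closer to each other than by the level of Pdia6, while the control arrays lay further apart. The ratio of Pdia6 to Prdx4 went furthest apart, from 2.47 and 2.45 to 3.84 and 3.27, a change of 1.09 (exact permutation p 0.333). Pdia5 and Pdia6 kept nearly the same ratio: Pdia5 minus Pdia6 was −7.15 and −7.09 on the control arrays against −7.07 and −7.24 on the KO arrays, with overlap. Txndc5 and Erp29 likewise kept their ratio within the spread, with a change of 0.0031 in their log2 ratio (exact permutation p 1).

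The knockouts were unequal across the group. KO replicate 1 was higher than KO replicate 2 for 8 of the 10 genes, against 50.5% of all named genes; the exceptions were Prdx4 and Tmx1. Against control replicates 1 and 2, Pdia5 was higher by 1.003 and 0.88 in KO replicate 1 and by 0.51 and 0.39 in KO replicate 2. For Pdia6 these values were 0.92 and 0.86, and 0.60 and 0.54. For Prdx4 they were −0.44 and −0.53, and −0.19 and −0.28. In these 3 genes every KO and control pair had the same sign, which restates that their groups did not overlap. The same held for Pdia3, Pdia4, Txndc5 and Erp44, and for 49.3% of all probes. Without control replicate 2, the array with choroid plexus signal, the differences of Pdia6, Pdia5 and Prdx4 were 0.76, 0.76 and −0.32, and those of Pdia3 and Pdia4 were 0.35 and 0.36. None of the 13 probes had a spot on the patches of raised local background seen on the control arrays.

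**Figure D4:**
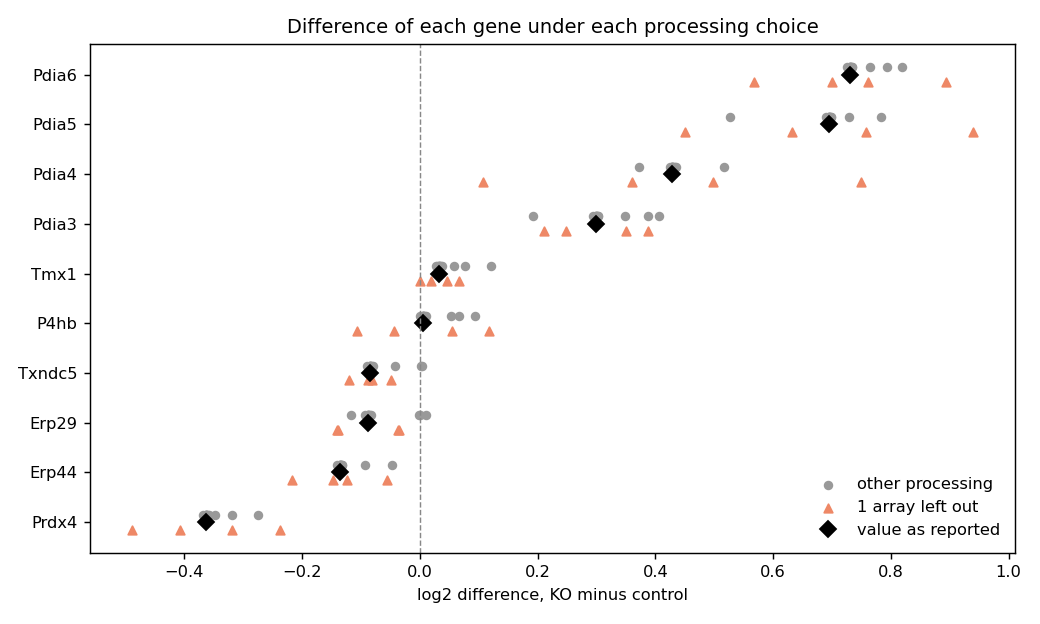
Log2 difference of each gene as reported (diamond), with 1 array left out (triangles) and under the other processing alternatives (grey points). Pdia3, Pdia4, Pdia5 and Pdia6 stay above 0 and Erp44 and Prdx4 below 0 in all 16 alternatives, while Tmx1, P4hb, Txndc5 and Erp29 cross 0 in at least 1. Where the groups do not overlap, leaving out 1 array cannot turn the sign.

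A wider list held 26 ER thioredoxin-fold and redox genes, of which 23 were measured. In KO 4 were higher and 19 lower, where 10557 of the 16524 named genes were lower. Both knockouts were above both controls for 3 and below both for 7, beside 2280 and 5310 of the named genes. Their median difference was −0.080, near the −0.064 of all named genes, and 0 passed a limma p of 0.05 before or after adjustment. The 3 with the smallest p were Ero1b, Txndc15 and Qsox1. Ero1b, an oxidase that recharges the isomerases, was at −2.51 and −2.68 on the control arrays against −2.28 and −2.40 on the KO arrays, a difference of 0.26 (SE 0.12; limma adjusted p 0.410). Its paralogue Ero1a differed by −0.017 (SE 0.11), with overlap. Txndc15, a membrane protein with a thioredoxin domain, differed by −0.21 (SE 0.11; limma adjusted p 0.458). Qsox1, a sulfhydryl oxidase of the secretory pathway, differed by −0.22 (SE 0.12; limma adjusted p 0.471).

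Among the proteins that work with the members, the chaperones Hspa5 and Sdf2l1 had differences above that of Pdia6. All 15 were measured, 9 higher and 6 lower in KO, with a median of 0.058 against −0.064 for all named genes. Both knockouts were above both controls for 6, against 22.5% of all probes and 2280 of 16524 named genes. At an unadjusted limma p under 0.05, 3 were higher (8.84% of all probes) and 1 was lower (5.2% of all probes). Hspa5, the chaperone BiP that Pdia6 binds, was at 4.69 and 4.78 on the control arrays against 5.73 and 5.38 on the KO arrays, a difference of 0.82 (SE 0.16; limma adjusted p 0.273). Its promoter window also held the exact ERSE, which reads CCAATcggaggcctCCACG. The windows of the other partners, Sdf2l1 and Calr included, were not examined one by one. Sdf2l1, part of the BiP complex, differed by 1.03 (SE 0.27; limma adjusted p 0.286). Calr, the lectin calreticulin that works with Pdia3, was higher by 0.48 (SE 0.16; limma adjusted p 0.328), the fourth in order of p. Of the prolyl 4-hydroxylase alpha subunits that pair with P4hb, P4ha2 was lower, with a difference of −0.35 (SE 0.10; limma adjusted p 0.312). P4ha1 differed by −0.18 (SE 0.15) and P4ha3 by 0.45 (SE 0.61), both with overlap. The probe of P4ha3 was well above background on 3 of the 4 arrays.

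Outside the ER, the thioredoxin, glutaredoxin, peroxiredoxin and glutathione peroxidase genes (22 of 22 measured) had a median of −0.15, with 4 genes higher and 18 lower in KO, where 10557 of 16524 named genes were lower. Both knockouts were below both controls for 14 of them, against 26.9% of all probes and 5310 of the named genes. At an unadjusted limma p under 0.05, 1 was lower (5.2% of all probes). That was Gpx1, a cytosolic glutathione peroxidase, with a difference of −0.28 (SE 0.10; limma adjusted p 0.348). Glrx, a glutaredoxin, differed by −0.32 (SE 0.15; limma adjusted p 0.409) and Txndc17, a cytosolic thioredoxin-like protein, by −0.21 (SE 0.097; limma adjusted p 0.414), with its spot on a patch of raised background on 1 array. The other peroxiredoxins were nearer 0 than Prdx4: Prdx1, Prdx2, Prdx3, Prdx5 and Prdx6 differed by −0.19, −0.16, −0.20, −0.24 and −0.0061. Whether these differ from Prdx4 was not tested.

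**Figure D5:**
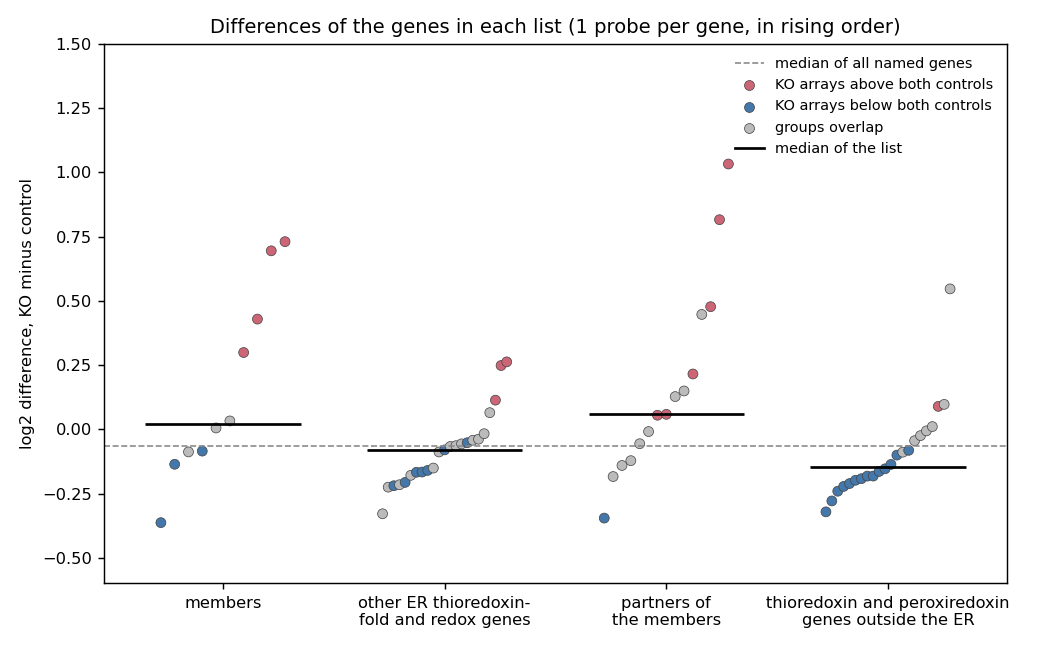
Log2 difference between KO and control for each gene of the 4 lists, in rising order within a list; colour shows whether the 2 KO arrays lie above, below or among the controls, black bars are list medians and the dashed line is the median of all named genes (−0.064). Pdia5 and Pdia6 lie at 0.69 and 0.73 at the top of the members, beside Hspa5 and Sdf2l1 at 0.82 and 1.03 among their partners.

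Across the 4 arrays, the mean profile of the 10 genes was compared with 16049 other genes well above background on every array. The closest by root mean square distance of centred log2 levels were Tcf7 (0.0072), Snhg15 (0.0077), Ahsa2 (0.0081), Nup133 (0.010) and Krt31 (0.012). With 4 arrays, such likeness has little resolution. The members also differed in opposite directions, from −0.36 for Prdx4 to 0.73 for Pdia6, so their mean profile stands for no single member. Among the members, Txndc5 and Erp29 were each other's nearest (0.036), as were Pdia5 and Pdia6 (0.065).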

How the data were processed

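RNA of 4 cerebellum samples was hybridised to one-colour Agilent arrays. The intensity values in the deposited scanner files are linear processed signals that, per the file headers, came from Agilent Feature Extraction 12.1.1.1, with background subtracted (the submitters' processing notes name 10.7.1.1). The deposited files also hold flags (other values). The authors' deposited table holds log2 values of unstated scale and centring. Apart from a constant per array, its differences between arrays equalled those found here within 0.01 for 100% of 35661 probes, and its column medians were 0.0071, −0.19, −0.16 and −0.22. Its centring value stays unknown.

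Control spots and outlier flags (65 to 176 per array) were left out. The log2 signal, less the array's 75th percentile, was used per probe, and 37516 of 56605 probes were kept because both arrays of a group called them well above background. Between 66.4% and 69.4% of spots met that call and 0 were saturated; the number of arrays limits the precision. RefSeq accessions named 32994 of 35886 probes (GRCm38.p6 table). Groups were compared with limma 3.58.1 in R 4.3.3, with Benjamini-Hochberg adjustment, and the brightest probe stands for a gene. The fit was tested on simulated data.

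Members and lists were chosen with earlier results of these data known. Named genes are Derl2, the 10 members, the 3 of each further list with the smallest p and the 5 of nearest profile. Ero1a, Calr, P4ha1, P4ha3 and the further peroxiredoxins were added after their values were seen. Alternatives changed the normalization, background correction, filters, spots, variance model, probe choice or arrays, or took the replicate as a block.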

Additional observations from a re-analysis of the deposited data

How the results depend on the processing

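Of the 10 genes, Pdia3, Pdia4, Pdia5, Pdia6, Erp44 and Prdx4 kept their direction in all 16 alternatives. Many of these could not have turned it. The groups of these genes did not overlap, so leaving out 1 array cannot change the sign. Changing the filter on dim signal or the variance model, or adding the replicate block, left every estimate as it was. In the alternatives that kept all 4 arrays, 0 members passed the adjusted threshold. The signs that turned were those of Txndc5 (0.0031 under spike-in scaling, 0.0021 under normexp) and Erp29 (0.0094 under normexp), and, with an array left out, of P4hb (−0.11 to 0.12) and Tmx1 (−0.00059 to 0.066). The cause was not tested. With an array left out, Pdia6 ran from 0.57 to 0.89, Pdia5 from 0.45 to 0.94, Pdia4 from 0.11 to 0.75, Pdia3 from 0.21 to 0.39, Prdx4 from −0.49 to −0.24, Erp44 from −0.22 to −0.055, Erp29 from −0.14 to −0.036 and Txndc5 from −0.12 to −0.050. A group reduced to 1 array takes its spread from the other. The median over the members, 0.019, became 0.107 under spike-in scaling, and −0.030 to 0.068 with an array left out. The adjusted p of Pdia6 ran from 0.122 to 0.611 over all alternatives.

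Probes past the adjusted threshold numbered 0, but 1 under each of spike-in scaling, normexp, omission of patch spots, quantile normalization and scaling to the median of probes above background, 4 with an intensity trend and robust variances, and 0 to 98 with an array left out, 98 without control replicate 2. At an unadjusted p under 0.05, 1949 probes were lower in KO, 935 under spike-in scaling and 1039 to 1884 with an array left out. The 3316 higher probes became 1873 to 2640 with an array left out, and 4924 under spike-in scaling. The spike-in probes were lower in KO relative to the 75th percentile, by −0.088. Same-numbered arrays deviated together only weakly (r 0.14 across 35661 probes), and with 2 pairs the numbers are not shown to pair the arrays; with the replicate block 0 probes passed, and 3674 probes were higher and 2377 lower at an unadjusted p under 0.05. The block changed no member's call.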
